A study of Mus musculus with 6 samples.

Results

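Integrins are the receptors that anchor cells to the surrounding matrix, and the focal adhesion proteins are the intracellular parts that couple them to actin. Their transcripts were read from the lungs of 6 female SCID mice, 3 in each of 2 groups. Members were all genes of the table whose symbol begins with Itga or Itgb and names an integrin subunit, plus 15 named focal adhesion genes. This gave 41 of 24054 genes, of which 18 encode alpha subunits and 8 encode beta subunits. Of the 41 members 39 had a mean of at least 1 over the 6 libraries and were tested. Itgad and Itgb8 did not.

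SCID mice lack mature T and B cells through a defect in antigen receptor rearrangement. Into the tail vein of every mouse went extracellular vesicles (EVs), the membrane-bound particles that cells release. The EVs bore CD9, CD63 and CD81, were fluorescently labelled and had mouse neural progenitors (embryos of E15.5) as their source. The progenitors were wild type in the WT EV group and lacked Tsc1, a brake on the growth kinase mTORC1, in the Tsc1-null EV group. The labels name no other difference between the groups, and the genotype they give is that of the EV donor cells. All 6 mice were injected intravenously with 500000 rat ELT3 cells 48 h later, which serve to model lymphangioleiomyomatosis, and their lungs were taken after a further 72 h. Lungs given neither EVs nor ELT3 cells are not analysed here, and mouse and rat reads cannot be told apart in these values. The age of the mice is not given in the sources used here.

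An integrin is 1 alpha and 1 beta subunit paired at the cell surface. The beta tail binds talin and kindlin, which switch the receptor to its active form and link it to actin through vinculin. The kinase FAK and the adaptors paxillin and p130Cas pass the signal on. In the lung, alpha 3 and alpha 6 hold epithelium to laminin, beta 6 activates TGF-beta at epithelial surfaces, alpha 8 marks interstitial mesenchyme, and the beta 2 family serves leukocytes.

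The libraries held from 5101413 to 9358820 reads assigned to genes. Values are taken as TMM-normalized CPM (counts scaled to a common library size), a unit read from the table's name and its value steps, since the labels do not state it. Differences are log2 folds computed after adding 1 to each value, with WT EV as the base, ± SE from limma. Each library is taken as 1 mouse. The labels number the samples separately but say nothing of handling, so p-values measure the spread between these samples only. A pair of libraries stood apart, replicate 2 of WT EV and replicate 1 of Tsc1-null EV. Correlated with each other library in turn, they had medians of 0.9633 and 0.9421, and the other 4 had 0.9801 to 0.9825. Malat1, a nuclear long noncoding RNA, stood at 15673 and 30060 in this pair, against 1609 to 2819 in the other 4 libraries. Lung markers were present: Sftpc, Ager and Pecam1 stood at 519.8 or more in every library.

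No integrin or focal adhesion gene differed between the groups by limma at an adjusted p under 0.05. Adjusted p-values of the 39 members ran from 0.721 to 0.998, and over all 14159 genes tested the same test called 0 (0%). Of the members 16 had a log2 fold above 0 and 23 below, with a median of -0.05. Over all genes tested 47.3% were above 0 and the median was -0.02. The differences were small as well: the median size of the log2 fold, sign left aside, was 0.11 in the members and 0.17 in all genes tested. The sets were not matched for level, so this does not show that members differed less than other genes. Only Itgb4 had an unadjusted p under 0.05, 1 of 39 where 6.57% of all genes did.

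The groups did not overlap for 2 members, Itgb4 and Itga11, both higher with Tsc1-null EV. Among all genes tested 13.1% did not overlap, 6.86% on the higher side and 6.22% on the lower. On the lower side there were 0 members. Leaving out the pair of libraries that stood apart moved the members' median to 0.08, with 24 of 39 above 0. Without Tsc1-null EV replicate 1 alone the median was 0.10, so the sign of this median rests on that library.

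**Figure D1:**
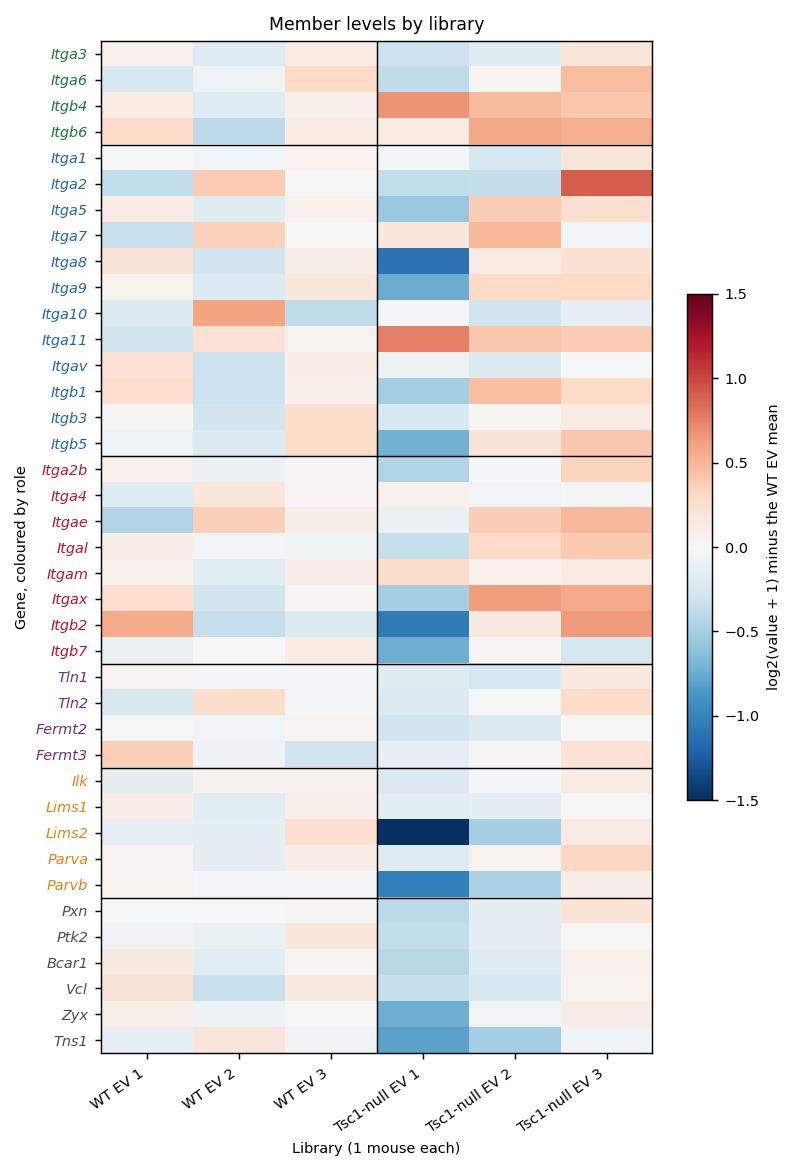
Heat map of the 39 tested members (rows, coloured and ruled off by role) in the 6 libraries (columns), each cell showing log2(value + 1) minus the mean of the WT EV libraries. The column of Tsc1-null EV replicate 1 holds the lowest value of 23 members.

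Tsc1-null EV replicate 1 was the lowest of the 6 libraries for 23 of the 39 members, 59%, and was lowest for 30.4% of all genes tested. Tsc1-null EV replicate 3 was the highest for 17 members, 43.6%, and for 14.3% of all genes tested. So members of the Tsc1-null EV group spread to both sides of the WT EV libraries. Among the 15 focal adhesion genes replicate 1 was lowest for 11, and among the 24 integrin subunits tested for 12. The same library had the lowest summed markers of endothelium, at 1672 against 2472 to 3347 in the others, with 6 of 6 endothelial markers below 0 in log2 fold. Mesothelial markers summed to 234.7 in it against 533.3 to 1159 (5 of 6 below 0), heart muscle markers to 144.7 against 349.9 to 575.3 (5 of 5 below 0), and smooth muscle markers to 850.0 against 970.9 to 1457 (5 of 5 below 0). The library was also lowest in the sums of alveolar type 1, alveolar type 2, fibroblast and platelet markers. So it was for alveolar macrophage, monocyte and interstitial macrophage, dendritic cell and NK cell markers. Its alveolar type 2 sum of 18623 was mostly Sftpc, at 13094. Among the other type 2 markers Etv5 was lowest there at 56.9, while Abca3, at 217.1, lay above every WT EV lung. The sums of airway and basal and of neutrophil markers in this library were the highest of the 6. Of its neutrophil sum of 89.2, Cxcr2 alone gave 45.5. No other neutrophil marker was highest in it, and S100a8 was at its lowest, 5.41. The mesothelial genes Wt1 and Gpm6a and the endothelial gene Egfl7 were lower without overlap in all 3 Tsc1-null EV lungs. None of them was called by limma, and no heart or smooth muscle marker was without overlap. By sum, Tsc1-null EV replicate 3 lay inside the WT EV range for mesothelium (672.8) and endothelium (3130). Replicate 2 did so for smooth muscle (1413) and heart muscle (444.6). In each of these lists the remaining Tsc1-null EV lung lay below the WT EV range. The part of these cells, of the high Malat1 and of the low read total of this library in the members' values was not tested. In whole lung, fewer cells of a type and less RNA per cell cannot be told apart.

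Levels can be compared between genes only per length, and were divided by the longest coding transcript of GENCODE M21. On that scale Itgb1, the common partner of most matrix-binding alpha subunits, stood at 203.9 CPM per kb (range 135.5 to 263.6 over the 6 libraries). It was clear of the next beta subunit, Itgb5, at 29.7 (17.7 to 38.7). Itgb2, Itgb6, Itgb3, Itgb7 and Itgb4 followed in that order, from 12.5 down to 3.78 CPM per kb, and the ranges of neighbours overlapped. Among alpha subunits the laminin receptor Itga3 was first at 47.8 (39.6 to 55.8), overlapping with Itga8 at 34.5 (16.7 to 42.1). Itga6, Itga5 and Itga9 lay between 16.4 and 19.1.

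The least abundant alpha subunits above the filter were the collagen receptors Itga11, Itga2 and Itga10, at 0.385, 0.371 and 0.271 CPM per kb. Of the exonic bases of Itga10 34.5% also lie in exons of Gm42957 on the same strand. Itgad and Itgb8 had at most 1 and 4 reads in any library, so no difference was detectable for them. Tns1, an actin-binding adaptor, led the focal adhesion genes at 161.8 CPM per kb (105.5 to 209.4), clear of Ilk at 67.4 (58.4 to 73.5). Of the 14 neighbouring pairs in the focal adhesion order, 11 had overlapping ranges.

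**Figure D2:**
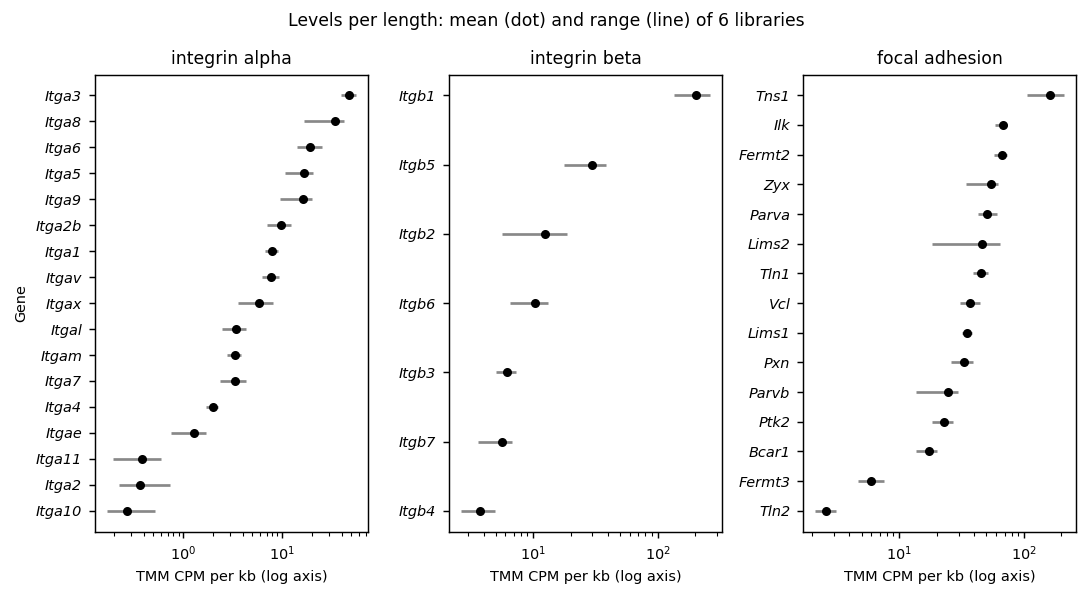
Levels per length on a log axis (TMM-normalized CPM per kb of the longest coding transcript), with dots for the mean and lines for the range over all 6 libraries. Itgb1 and Tns1 stand clear of the next member in their panels, and Itgad and Itgb8 are left out because libraries were at 0.

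The epithelial integrins were those of the hemidesmosome and of laminin and TGF-beta binding. Of 4 genes 3 were above 0 in log2 fold, and the median was 0.22. Itgb4 encodes the beta 4 subunit, which pairs with alpha 6 and anchors epithelium to the basement membrane in hemidesmosomes. It stood at 20.7, 16.5 and 20.2 in the WT EV lungs and at 30.9, 26.8 and 25.7 in the Tsc1-null EV lungs (reads per library 112 to 249). All 3 Tsc1-null EV values lay above all 3 WT EV values, and replicate 1, which stood apart, was the highest. The log2 fold was 0.52 ± 0.17, with a 95% interval of 0.14 to 0.90, and limma's adjusted p was 0.721. Without the pair of libraries that stood apart it was 0.35 (limma adjusted p = 0.459), and leaving out 1 library at a time gave 0.42 to 0.58. Itgb4 lies on chr11:115974709-116008412 on the plus strand in mm10, as a protein-coding gene.

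Itgb6 encodes the beta 6 subunit, which pairs with alpha v on epithelium. It stood at 51.2, 31.6 and 45.3 in WT EV and at 45.3, 62.9 and 61.5 in Tsc1-null EV lungs. Replicates 2 and 3 of the Tsc1-null EV group were above every WT EV lung, while replicate 1 lay within their range. The log2 fold was 0.41 ± 0.22. Leaving out replicate 2 of WT EV gave 0.21, and leaving out replicate 1 of Tsc1-null EV gave 0.56. With limma's weights for each sample, Itgb4 (0.40, adjusted p = 0.0451) and Itgb6 (0.45, adjusted p = 0.0462) were called, 2 of 39 members, both higher, where that fit called 7.42% of all genes and 4.12% as higher. In replicate order these weights were 0.933, 0.393 and 4.19 for the WT EV lungs. For the Tsc1-null EV lungs they were 0.213, 3.95 and 0.776. Most of the weight in each group therefore lay on 1 lung, so these calls rest largely on a single lung per group. The weights were estimated from the same 6 libraries.

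The epithelial alpha subunits Itga6 and Itga3 overlapped between the groups. Itga6, the partner of beta 4, stood at 67.8, 76.1 and 97.8 in WT EV and at 60.7, 81.4 and 109.7 in Tsc1-null EV lungs (log2 fold 0.03 ± 0.23). The lowest and the highest library were both Tsc1-null EV. Itga3, which pairs with beta 1 on laminin, stood at 250.4, 209.0 and 260.0 and at 192.6, 210.6 and 271.4 (log2 fold -0.10 ± 0.18), again with the Tsc1-null EV lungs at both ends.

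Markers of the epithelia that carry these integrins moved unevenly. The ciliated cell factor Foxj1 stood at 447.4 in Tsc1-null EV replicate 1, where Itgb4 was highest, and at 95.4 to 193.7 in the other 5 libraries. Airway and basal markers (4 genes, mostly Scgb1a1) summed to 48391 to 68427 in WT EV and 61775 to 91890 in Tsc1-null EV lungs. The basal keratin Krt5 stood at 1.00 or less in all Tsc1-null EV and at 1.18 to 5.61 in WT EV lungs. Its values rest on 1 to 46 reads per library, and Krt5 and Foxj1 were chosen after their values were seen. Alveolar type 1 markers summed to 3742 to 6469 and 3293 to 5620 (5 of 6 below 0 in log2 fold). Alveolar type 2 markers, mostly Sftpc by level, summed to 21710 to 28533 and 18623 to 37720 (5 of 6 above 0, Abca3 higher without overlap). Their part in the Itgb4 and Itgb6 values was not tested.

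**Figure D3:**
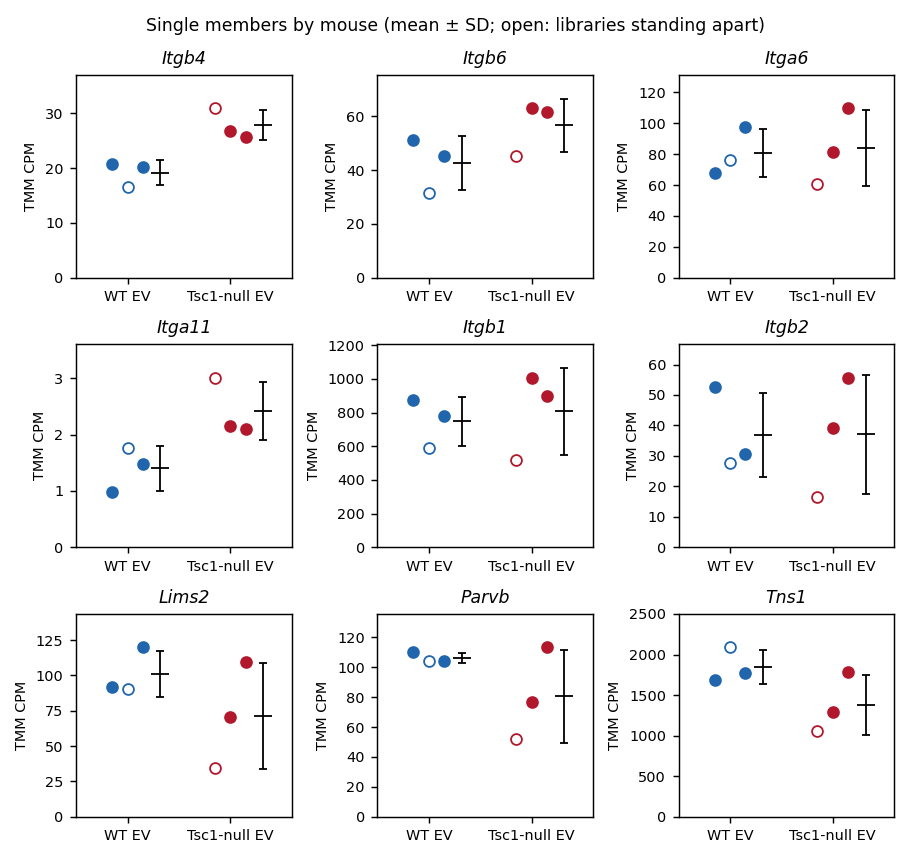
Values of 9 members (TMM-normalized CPM) in each mouse, WT EV in blue and Tsc1-null EV in red, with the mean ± SD of 3 mice beside them and open circles for the pair of libraries that stood apart. Itgb4 and Itga11 do not overlap between the groups, and the other 7 do.

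The matrix integrins bind fibronectin, collagens, laminin and latent TGF-beta. Of 12 tested 5 had a log2 fold above 0 and 7 below, with a median of -0.02. Without Tsc1-null EV replicate 1 the median was 0.25, and without both libraries standing apart it was 0.20. Itgb1 stood at 876.5, 588.6 and 779.5 in WT EV and at 516.8, 1006 and 900.7 in Tsc1-null EV lungs (log2 fold 0.07 ± 0.28). The pair of libraries that stood apart were the 2 lowest, 1 in each group. Itga8, the nephronectin receptor of interstitial mesenchyme, had the same pair lowest, at 239.6, 171.2 and 222.6 and at 96.8, 228.4 and 244.7 (log2 fold -0.25 ± 0.33). Without both libraries its log2 fold was 0.03.

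Itga11, a fibrillar collagen receptor of fibroblasts, was the other member without overlap. It stood at 0.976, 1.76 and 1.48 in WT EV and at 3.01, 2.16 and 2.10 in Tsc1-null EV lungs. The Tsc1-null EV lungs were all higher, but these values rest on 8 to 20 reads per library. The log2 fold was 0.51 ± 0.26 with a 95% interval of -0.09 to 1.11, which spans 0. The gene lies on chr9:62677826-62783982 on the plus strand in mm10. Fibroblast markers summed to 844.2 to 1162 in WT EV and 714.1 to 1544 in Tsc1-null EV lungs. Of these 2 of 5 were above 0 in log2 fold, and Dcn was lower without overlap. Col1a2 gave 994.7 of the highest sum, 1544. The part of fibroblasts in the Itga11 values was not tested.

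Itgav, the alpha v subunit of vitronectin and latent TGF-beta receptors, stood at 65.4, 44.8 and 60.5 and at 53.1, 48.6 and 55.8 (log2 fold -0.10 ± 0.17). Its Tsc1-null EV values lay inside the WT EV range. Itga7, a laminin receptor of muscle, stood at 9.39, 15.7 and 12.1 and at 13.8, 17.6 and 11.8 (log2 fold 0.21 ± 0.23), with overlapping groups. Leaving out replicate 1 of WT EV gave 0.04 for Itga7, and leaving out replicate 2 of that group gave 0.38. The remaining 7 matrix integrins tested (Itga1, Itga2, Itga5, Itga9, Itga10, Itgb3 and Itgb5) had log2 folds from -0.15 to 0.06, and their groups overlapped.

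The leukocyte and platelet integrins gave 5 of 8 log2 folds above 0, with a median of 0.06. Itgb2, the shared beta subunit of LFA-1, Mac-1 and p150,95, was the most abundant per length. It stood at 52.6, 27.6 and 30.5 in WT EV and at 16.6, 39.1 and 55.6 in Tsc1-null EV lungs (log2 fold -0.09 ± 0.41, 95% interval -1.03 to 0.85). Both groups spanned a wide range, with Tsc1-null EV lungs at both ends. Its sign turned without Tsc1-null EV replicate 1, to 0.39. Itgax, the CD11c subunit of alveolar macrophages and dendritic cells, stood at 25.0, 17.0 and 21.2 and at 14.4, 32.6 and 31.4 (log2 fold 0.23 ± 0.31). Replicates 2 and 3 of the Tsc1-null EV group lay above all WT EV lungs and replicate 1 below them. Leaving out replicate 2 of Tsc1-null EV gave 0.03 for Itgax, and leaving out replicate 1 of that group gave 0.59.

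Itgam, the CD11b subunit of myeloid cells, stood at 15.4, 12.9 and 15.8 and at 18.0, 15.4 and 16.1 (log2 fold 0.16 ± 0.17). Itgae, the CD103 subunit that binds E-cadherin, stood at 2.93, 5.88 and 4.69 and at 4.01, 5.93 and 6.52 (log2 fold 0.25 ± 0.28). The log2 fold of Itgae was 0.03 without WT EV replicate 1 and 0.61 without the pair that stood apart. Itgb7, which pairs with alpha E and alpha 4, averaged 16.7 ± 1.33 (SD, n = 3) in WT EV and stood at 9.62, 17.1 and 13.8 in Tsc1-null EV lungs (log2 fold -0.32 ± 0.22). All 3 overlapped between the groups. Itga2b of platelets, Itga4 and Itgal of leukocytes had log2 folds from -0.05 to 0.11. Monocyte and interstitial macrophage markers summed to 173.1 to 256.1 in WT EV and 166.6 to 296.9 in Tsc1-null EV lungs (4 of 5 above 0 in log2 fold). Alveolar macrophage markers (5 of 6 in the table) summed to 127.4 to 275.5 and 83.8 to 208.0 (4 of 5 below 0). These sums depend on Fabp4, which stood at 87.1, 19.5 and 177.9 and at 14.6, 67.3 and 19.0 (log2 fold -1.31). Mrc1, Ear2 and Chil3 had log2 folds of -0.08, -0.10 and -0.15, and Marco, with 3 to 31 reads per library, had 0.76. Neutrophil markers summed to 46.8 to 86.1 and 67.8 to 89.2 (3 of 5 below 0, Retnlg higher without overlap). The 3 below 0 were S100a8 at -0.10, Cxcr2 at -0.01 and Csf3r, which rounds to 0.00. Cxcr2 stood at 39.1 and 45.5 in the pair of libraries that stood apart, and at 12.4 to 15.7 in the others. Dendritic cell markers summed to 55.4 to 69.5 in WT EV and 32.1 to 57.8 in Tsc1-null EV lungs (3 of 5 below 0, Xcr1 lower without overlap). NK cell markers summed to 41.7 to 80.7 and 30.3 to 57.8 (4 of 5 below 0). Platelet markers, Itga2b among them, summed to 100.3 to 119.5 and 71.4 to 103.4 (4 of 6 below 0, Pf4 and Ppbp lower without overlap). The part of these cells in the integrin values was not tested.

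The genes Itgam, Itgax and Itgad lie side by side on chromosome 7 in mm10, with gaps of 11.1 kb and 3.7 kb, and Itgal lies 727.5 kb away from Itgam. Itga2 and Itga1 neighbour each other on chromosome 13, 21.0 kb apart. Itgax stood at 5.83 CPM per kb and its neighbours Itgam and Itgad at 3.33 and 0.0105, where the ranges of Itgam and Itgax overlapped and Itgad lay below both. Of the exonic bases of Itgam 70.0% also lie in exons of Gm49368 on the same strand, which leaves its level uncertain. Itga1 stood at 7.88 and Itga2 at 0.371.

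Talins and kindlins are the activators that bind the beta tail. Of 4 genes 2 were above 0, with a median of -0.03. Tln1, the ubiquitous talin, stood at 402.1, 387.1 and 385.1 in WT EV and at 346.0, 326.8 and 432.4 in Tsc1-null EV lungs (log2 fold -0.10 ± 0.16). Fermt2, which encodes kindlin-2, stood at 232.7, 226.8 and 240.4 and at 189.0, 201.4 and 233.6 (log2 fold -0.17 ± 0.14). The WT EV lungs were tightly grouped for both, and 1 Tsc1-null EV lung lay within or above them. Fermt3, the kindlin of blood cells, stood at 19.6, 14.3 and 12.2 and at 13.8, 15.3 and 17.7 (log2 fold 0.04 ± 0.21). Tln2, the talin of muscle and brain, stood at 25.9, 37.2 and 30.5 and at 26.7, 31.1 and 37.7 (log2 fold 0.03 ± 0.19). Their groups overlapped.

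ILK, PINCH and parvin form a complex that ties the beta tail to actin. Of these 5 genes 4 were below 0, with a median of -0.10. Lims2, which encodes PINCH2, had the lowest log2 fold of all members, -0.63 ± 0.36 (95% interval -1.45 to 0.19). It stood at 92.1, 90.7 and 119.8 in WT EV and at 34.3, 70.5 and 109.3 in Tsc1-null EV lungs. Tsc1-null EV replicates 1 and 2 lay below every WT EV lung and replicate 3 lay among them. Parvb, beta-parvin of muscle and heart, stood at 110.3, 104.4 and 104.0 and at 51.7, 76.4 and 113.2 (log2 fold -0.47 ± 0.25), with replicates 1 and 2 below every WT EV lung and replicate 3 above them. Lims2 stood at -0.19 without Tsc1-null EV replicate 1 and at -1.01 without replicate 3, and Parvb at -0.19 and -0.75. The endothelial and heart sums of that library are given above.

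The broadly expressed members of the complex were closer. Lims1, which encodes PINCH1, stood at 166.6, 138.0 and 165.1 and at 139.5, 141.9 and 155.4 (log2 fold -0.10 ± 0.14). Parva, alpha-parvin, stood at 227.8, 199.2 and 236.5 and at 192.4, 228.7 and 273.0 (log2 fold 0.05 ± 0.17). Ilk, the pseudokinase at the centre, stood at 111.7, 128.2 and 128.1 and at 104.8, 120.5 and 132.0 (log2 fold -0.05 ± 0.15). All 3 overlapped. Of the exonic bases of Ilk 98.7% lie opposite exons of Rrp8 or Taf10, and no source used here says whether counting used strand, which leaves its level uncertain.

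The adaptors, the kinase and the actin linkers were all below 0, 6 of 6, with a median of -0.18, and Tsc1-null EV replicate 1 was the lowest library for all 6. Without that library the median was -0.07, and without both libraries standing apart 5 of 6 were below 0. Tns1, tensin 1 of fibrillar adhesions, stood at 1688, 2087 and 1774 in WT EV and at 1052, 1296 and 1781 in Tsc1-null EV lungs (log2 fold -0.45 ± 0.24). Replicate 3 lay within the WT EV range and the other two below it. Ptk2, the focal adhesion kinase FAK, stood at 108.1, 104.6 and 125.1 and at 86.6, 102.4 and 111.5 (log2 fold -0.17 ± 0.15). Bcar1, the scaffold p130Cas, stood at 63.4, 51.3 and 59.3 and at 42.9, 50.8 and 60.4 (log2 fold -0.18 ± 0.17).

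Zyx, zyxin of actin stress fibres, stood at 192.6, 173.6 and 183.6 and at 109.9, 177.9 and 196.5 (log2 fold -0.22 ± 0.22). Only replicate 1 of its Tsc1-null EV values lay outside the WT EV range on the low side, and without that library the log2 fold was 0.03. Pxn, the adaptor paxillin, and Vcl, the actin linker vinculin, stood at log2 folds of -0.11 ± 0.17 and -0.17 ± 0.19, with overlapping groups. Of the exonic bases of Vcl 39.7% lie opposite exons of Ap3m1.

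**Figure D4:**
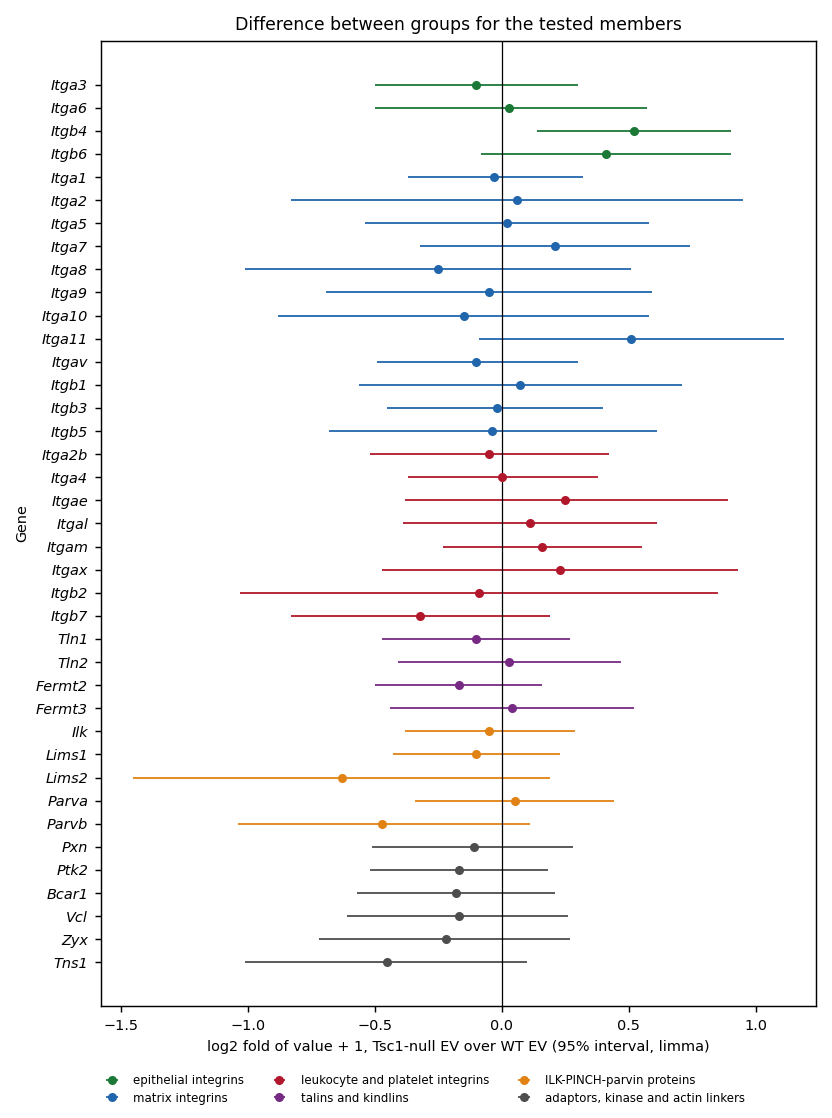
Log2 fold of Tsc1-null EV against WT EV lungs on the value + 1 scale (dots), with limma's 95% interval (lines) for the 39 tested members, coloured by role. The interval of Itgb4, 0.14 to 0.90 before adjustment for the number of genes, lies above 0 and the other 38 span it.

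A ratio of 2 members within a library is free of that library's overall scale. Ratios of 6 pairs, chosen after their values were seen, were compared by an exact permutation test (two-sided), whose smallest p with 3 against 3 is 0.1. Any ratio without overlap gets that p. Because the pairs were picked by their values, the p-values below and their adjustment add no evidence. The share of ratios without overlap among other gene pairs was not computed. The log2 ratio of Itgb6 to Itgav, whose proteins form the alpha v beta 6 receptor, was -0.35, -0.50 and -0.42 in WT EV and -0.23, 0.37 and 0.14 in Tsc1-null EV lungs. Every Tsc1-null EV lung exceeded every WT EV lung, and the means differed by 0.52 (exact permutation p = 0.1, 0.3 adjusted over the 6 pairs), and by 0.64 without the pair of libraries standing apart. The log2 ratio of Parvb to its paralog Parva was -1.05, -0.93 and -1.19 and then -1.90, -1.58 and -1.27. It was lower in all 3 Tsc1-null EV lungs, with a difference of -0.53 (exact permutation p = 0.1, 0.3 adjusted), and of -0.31 without both libraries.

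The other 4 ratios overlapped. Itgb4 to its partner Itga6 differed by 0.51 (exact permutation p = 0.2), and by 0.15 without both libraries standing apart. Lims2 to Lims1 differed by -0.54 (exact permutation p = 0.3), and by -0.10 without both. Tln2 to Tln1 and Fermt3 to Fermt2 differed by 0.13 and 0.21 (exact permutation p = 0.7 and 0.4).

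**Figure D5:**
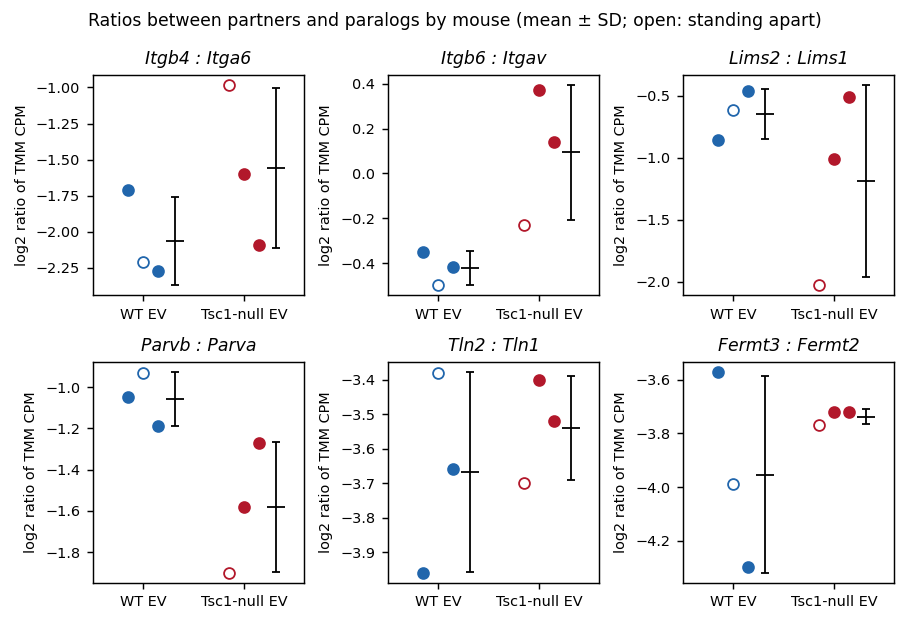
Log2 ratio of TMM-normalized CPM between partner or paralog members in each mouse, WT EV in blue and Tsc1-null EV in red, with mean ± SD of 3 mice and open circles for the pair of libraries that stood apart. The Itgb6 to Itgav ratio is higher and the Parvb to Parva ratio lower in all 3 Tsc1-null EV lungs. The other ratios overlap, and the pairs were chosen after their values were seen.

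Other genes of integrin adhesion were read from a list of ligands and further adhesion proteins. Of 72 listed genes 71 were in the table and 67 were tested. Of these 0 passed limma's test in either direction, 32 had a log2 fold above 0 and 35 below, and the median was -0.01. Among 20 ligands tested, such as fibronectin, laminin chains and ICAMs, 12 were above 0 with a median of 0.06, and none was without overlap. Of the 47 further adhesion proteins 1 was higher and 4 were lower without overlap, where 6.86% and 6.22% of all genes tested were. Tes, testin, a LIM protein that binds zyxin, stood at 35.5, 26.5 and 42.2 in WT EV and at 50.7, 54.2 and 53.7 in Tsc1-null EV lungs (log2 fold 0.62 ± 0.19, limma adjusted p = 0.721). Kank2, which binds talin, stood at 170.9, 168.6 and 164.5 and at 126.5, 135.9 and 158.5 (log2 fold -0.26 ± 0.14).

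Rap1b, a small GTPase that recruits talin, stood at 285.9, 265.6 and 245.2 and at 214.1, 240.2 and 227.3 (log2 fold -0.22 ± 0.14). Git2, a scaffold that binds paxillin, stood at 92.5, 98.2 and 93.5 and at 50.5, 74.2 and 90.3 (log2 fold -0.44 ± 0.21). Elmo1, part of a Rac activator downstream of p130Cas, stood at 49.9, 47.0 and 46.1 and at 24.7, 30.0 and 46.1 (log2 fold -0.54 ± 0.22). For Kank2, Git2 and Elmo1 the highest Tsc1-null EV lung was replicate 3, close to the lowest WT EV lung. For Elmo1 both values round to 46.1, so its lack of overlap rests on digits not printed.

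The upstream sequences of members were searched for the CArG box, the site of serum response factor, which is known to drive many cytoskeletal genes. RefSeq starts on GRCm38.p6, the assembly of mm10, were matched for 28 of 41 members. In the 250 bases before a start, read on both strands, 3 of the 28 held a CArG box (10.7%), and 1.62% of 27025 genes did. The 3 are shown with the box in capitals, up to the first annotated exon base. Their windows are chr14:20929148-20929397 on the plus strand for Vcl, chr14:45530119-45530315 on the minus strand for Fermt2, and chr2:60673712-60673943 on the minus strand, before an internal start, for Itgb6.
Vcl: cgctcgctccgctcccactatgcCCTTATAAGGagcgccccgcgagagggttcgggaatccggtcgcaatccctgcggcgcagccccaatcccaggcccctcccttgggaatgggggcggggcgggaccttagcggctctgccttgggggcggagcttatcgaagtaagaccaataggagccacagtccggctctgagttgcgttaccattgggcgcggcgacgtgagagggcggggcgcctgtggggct
Fermt2: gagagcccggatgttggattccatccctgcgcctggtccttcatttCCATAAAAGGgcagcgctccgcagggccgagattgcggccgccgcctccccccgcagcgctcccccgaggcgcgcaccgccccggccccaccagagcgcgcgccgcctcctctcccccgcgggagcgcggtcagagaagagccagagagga
Itgb6: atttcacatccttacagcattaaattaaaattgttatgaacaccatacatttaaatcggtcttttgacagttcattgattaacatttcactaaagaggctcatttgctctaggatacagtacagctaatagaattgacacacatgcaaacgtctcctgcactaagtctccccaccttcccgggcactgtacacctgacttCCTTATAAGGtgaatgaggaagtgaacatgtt
Vcl and Itgb6 hold the same 10 letters, 227 and 50 bases before their starts. The log2 folds of the 3 genes were -0.17, -0.17 and 0.41, so the genes with a box did not share a direction. GGGCGG, the GC box, was in 50% of the 28 and 35.4% of all genes, TGANTCA, the AP-1 site, in 7.14% and 7.82%, GGAATG, the TEAD site, in 10.7% and 14.4%, and CACGTG, an E-box, in 7.14% and 6.86%. In Vcl 2 GC boxes overlap. A match describes letters in this window and is no evidence of binding.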

How the data were processed

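Whole-lung RNA was sequenced in read pairs on an Illumina platform, per the labels' protocols. Expression came as a single deposited table of signal, read as linear TMM-normalized CPM from the table's name and value steps, with 24054 genes whose columns sum to between 964931 and 1022663. The submitters' processing notes list Bowtie2 2.1.0, RSEM 1.2.15, edgeR and the build mm10 but not what each did. For annotation, filters and strand: not given in the sources used here.

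Dividing a column by its smallest step gave whole reads for 100% of values, to within 0.001 of a read. Groups came from the treatment label. Genes with a mean of at least 1 were kept (14159), and limma 3.58.1 in R 4.3.3 tested log2(value + 1) between the groups (trend, two-sided, Benjamini-Hochberg over all genes, threshold 0.05). Fold changes on this scale understate those of low genes. Libraries of a group differed by more than sampling noise (chi-square per degree of freedom 9.21 to 58.6). This spread, with 3 libraries a group, sets the precision of most genes, and read totals that of genes with few reads.

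The members and lists were chosen with earlier results of these data known. All values are printed for members whose groups do not overlap, for up to 4 of each role with the smallest unadjusted p and for the most abundant per kb (27 members, with Itgb7 in WT EV given as a mean). Listed pathway genes without overlap and with a mean of at least 5 could be named. Foxj1, Krt5 and the ratios were chosen after their values were seen. The alternatives tried were another pseudocount (0.5 or 0.1), a mean filter of 5 or none, equal medians in all libraries, edgeR 4.0.16 and DESeq2 1.42.0 on the recovered reads, sample weights and each replicate left out. Omitting both libraries that stood apart was an alternative chosen after seeing the data. Simulated data with known changes served to check that the fits return the size of a fold. No simulated library was made to stand apart, so the effect of such libraries was not checked. The lymphocyte marker list is not reported here.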

Additional observations from a re-analysis of the deposited data

How the results depend on the processing

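No member was called by limma with pseudocounts of 0.5 or 0.1, without a filter, with a filter at 5, with a common median, with any 1 replicate left out or without both libraries that stood apart, nor by edgeR or DESeq2. Sample weights called 2 members. Over all genes tested, limma called 0 (930 at an unadjusted p under 0.05) and edgeR 0 (966 unadjusted). DESeq2 called 14 (949 unadjusted), sample weights 1050 (583 higher and 467 lower), limma without both libraries 23, and limma with 1 replicate left out 0 to 2.

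Of the group medians only that of the matrix integrins moved beyond the spread between libraries: it was 0.20 without both libraries and ran from -0.14 to 0.25 with 1 replicate left out. Among the 27 members described by library, 16 kept their sign in every alternative run for them, Itgb4, Itgb6, Lims2, Parvb and Tns1 among them. Itga11 and Itgae, also of the 16, have means under 5 and were not tested with that filter. Itgb2 stood at 0.02 with edgeR, 0.02 with DESeq2, 0.26 with sample weights and 0.21 without both libraries. Sample weights gave -0.10 for Itga6 and 0.01 for Itga8, and without both libraries Itga8 stood at 0.03 and Ilk at 0.08. With 1 replicate left out the log2 folds ran from -0.45 to 0.39 for Itgb2, -0.18 to 0.24 for Itga6, -0.49 to 0.18 for Itga8, -0.26 to 0.01 for Itgav, -0.11 to 0.37 for Itgb1, and -0.24 to 0.00 for Itga3. They ran from -0.10 to 0.16 for Tln2, -0.10 to 0.22 for Fermt3, -0.07 to 0.18 for Parva, -0.12 to 0.04 for Ilk and -0.39 to 0.03 for Zyx. Without a change of sign they ran from -0.66 to -0.28 for Tns1, -0.50 to -0.11 for Itgb7, -0.30 to -0.06 for Bcar1, -0.25 to -0.07 for Ptk2, -0.26 to -0.10 for Fermt2, -0.22 to -0.02 for Tln1, -0.19 to -0.05 for Lims1 and 0.08 to 0.21 for Itgam. Sample weights put Itgb4 at 0.40 and Itgb6 at 0.45, past the threshold. The cause was not tested. No paired analysis was possible because the labels give the samples no shared replicate numbers. Depth limits Itga2, Itga10 and Itga11, with 7 to 48 reads per library, and Itgad and Itgb8.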
